A study of Mus musculus with 24 samples.

Results

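The 10 genes described here make up the core of the switch that lets a cell leave G1: the D-type cyclins *Ccnd1*, *Ccnd2* and *Ccnd3*, their kinases *Cdk4* and *Cdk6*, the inhibitors *Cdkn1b* (p27), *Cdkn2a* (p16 and p19), *Cdkn2c* (p18) and *Cdkn2d* (p19-INK4d), and the pocket protein gene *Rb1*. They were chosen from a list of G1 cyclin, kinase and inhibitor genes, and the choice used measured values, since *Ccnd1* was already known to be lower in the arrays labelled RESTko at all 3 stages. Each gene was read from 1 probe set, the one with a single gene symbol and the highest mean in its value table. All 10 were measured among 19938 genes on the larger platform and among 18194 genes on the other. In RefSeq's GRCm38.p6 *Ccnd1* lies at chr7:144929931-144939831, *Ccnd2* at chr6:127125162-127152188, *Ccnd3* at chr17:47505051-47599689, *Cdk4* at chr10:127063535-127067288 and *Cdk6* at chr5:3341004-3531008. *Cdkn1b* lies at chr6:134920401-134925525, *Cdkn2a* at chr4:89274473-89294619, *Cdkn2c* at chr4:109660876-109666756, *Cdkn2d* at chr9:21288459-21291421 and *Rb1* at chr14:73192858-73325951.

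The arrays followed mouse embryonic stem cells (ES) through neuronal progenitors (NP) to terminal neurons (TN). The larger platform held 18 arrays of cells of strain Black Agouti 129, with 3 arrays in each group: RESTko and RESTwt at ES, RESTko and RESTwt at NP, and RESTko and RESThet at TN. REST is a repressor of neuronal genes, and RESTko and RESThet are taken here as the labels give them. The other platform held 6 arrays of wildtype cells of the mixed strain 129Sv-C57Bl/6, with 2 arrays at each stage, and is called the mixed-strain course. The neuron controls were RESThet and not RESTwt, so a step from NP to TN in the controls also changes the genotype label. The sources used here do not give the deleted exon or the number of clones, and they label replicates as biological without naming separate cultures, so p-values measure only the spread between these arrays, which may be technical.

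In the textbook pathway, growth signals raise a D-type cyclin, which binds CDK4 or CDK6 and starts the phosphorylation of RB1. Phosphorylated RB1 releases E2F factors, which turn on genes for DNA replication. INK4 proteins bind CDK4 and CDK6 directly and keep cyclins off them, whereas p27 binds cyclin and kinase complexes, chiefly those of CDK2. Neural progenitors are known for their use of cyclins D1 and D2, and neurons leave the cycle for good.

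The labels were checked first. *Rest* gave 8.63, 8.53 and 8.66 in the RESTko arrays of ES, against 8.95, 8.99 and 8.95 in RESTwt, on the deposited log2 scale. At NP the RESTko arrays gave 7.43, 7.40 and 7.57 and the RESTwt arrays 7.48, 7.51 and 7.45. At TN the order turned, with 7.28, 7.38 and 7.46 in RESTko against 7.02, 7.01 and 7.07 in RESThet. The *Rest* probe set was therefore lower in the arrays labelled RESTko at ES alone, and directions at NP and TN rest on the labels; the sources name no deleted part, so whether its probes lie in it is not known here. The stage labels went with their markers. All 10 pluripotency markers fell from ES to NP and all 10 neuron markers rose from NP to TN, in every line tested. From NP to TN 9 of 10 fibroblast markers rose as well, as did 6 of 8 astrocyte markers (5 of 8 in the course). Of all genes, 43.2% in the controls, 41.8% in RESTko and 21.7% in the course rose from NP to TN. From ES to NP, 36.1% fell in RESTwt, 33.9% in RESTko and 19% in the course. Genes of chromosome 8, 955 of all 19938, were lower as a block in RESTko at ES and NP, with median differences of −0.17 and −0.19. They made up 31.0% and 39.9% of the genes called lower at these stages. At TN their median difference was −0.04, beside −0.02 over all genes, and they made up 5% of the genes called lower. None of the 10 genes lies on chromosome 8.

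Upstream sequences of the kinase genes and of *Cdkn2a* are shown because *Cdk4* and *Cdk6* gave unlike steps from ES to NP below and because *Cdkn2a* makes its 2 products from 2 starts. RefSeq promoter entries (GRCm38.p6) were found for 7 of the 10 genes, and *Ccnd1*, *Ccnd2* and *Rb1* were not matched. The 250 bases before each start were searched on both strands for the E2F motifs TTTCGCGC and TTTGGCGC, the GC box GGGCGG, the cyclic AMP element TGACGTCA and the E-box CACGTG, none of which overlap here. Capitals mark the matches.
Cdk4, chr10:127063285-127063534, plus strand: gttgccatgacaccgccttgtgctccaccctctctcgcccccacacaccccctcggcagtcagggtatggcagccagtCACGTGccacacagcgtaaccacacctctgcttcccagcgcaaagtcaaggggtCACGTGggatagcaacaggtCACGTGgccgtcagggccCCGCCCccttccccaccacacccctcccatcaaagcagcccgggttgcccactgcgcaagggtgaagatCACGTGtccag
Cdk6, chr5:3343643-3343892, plus strand: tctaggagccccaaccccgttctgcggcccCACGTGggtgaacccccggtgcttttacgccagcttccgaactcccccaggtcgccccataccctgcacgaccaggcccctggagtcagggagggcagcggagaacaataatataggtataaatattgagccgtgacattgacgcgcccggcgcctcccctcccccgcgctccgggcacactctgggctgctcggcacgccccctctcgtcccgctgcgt
Cdkn2a, outer start, chr4:89294620-89294869, minus strand: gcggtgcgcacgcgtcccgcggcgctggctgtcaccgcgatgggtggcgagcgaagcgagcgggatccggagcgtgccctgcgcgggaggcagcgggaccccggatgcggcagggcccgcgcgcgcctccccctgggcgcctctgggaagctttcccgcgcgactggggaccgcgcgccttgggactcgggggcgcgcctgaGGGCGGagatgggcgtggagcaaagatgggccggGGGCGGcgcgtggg
Cdkn2a, inner start, chr4:89282193-89282442, minus strand: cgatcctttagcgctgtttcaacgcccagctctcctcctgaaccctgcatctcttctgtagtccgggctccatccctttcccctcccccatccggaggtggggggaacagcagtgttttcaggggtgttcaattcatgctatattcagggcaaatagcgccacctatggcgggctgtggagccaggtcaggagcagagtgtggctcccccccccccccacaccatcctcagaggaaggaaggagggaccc
The *Cdk4* window held 4 E-boxes and 1 GC box, and the *Cdk6* window held 1 E-box. The *Cdk6* window lies inside the span of the gene given above (chr5:3341004-3531008). It thus precedes an inner start, whereas the *Cdk4* window precedes the first base of its gene. Of 32851 mouse promoter windows of this length, 6.02% held an E-box, 32.7% held a GC box, 1.55% held the cyclic AMP element, and 0.256% and 0.417% held the E2F motifs. A count of 4 or more E-boxes occurred in 7 of them (0.0213%). The E-box is the site class bound by MYC, and *Cdk4* is a textbook MYC target; a match describes these letters and is not a measured site. At *Cdkn2a* the outer start, from which p19 ARF is made, held 2 GC boxes, and the inner start, from which p16 is made, held no match. The probe set of *Cdkn2a* could not be assigned to either product from the sources used here.

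*Ccnd1*, the cyclin that mitogens induce, was the gene that led to this choice, so its difference between genotypes is a description with no test. The RESTko arrays of ES gave 8.90, 8.81 and 8.86, and the RESTwt arrays gave 9.35, 9.32 and 9.33. At NP the RESTko arrays gave 8.82, 8.85 and 8.85 against 9.85, 9.62 and 9.66 in RESTwt. At TN the RESTko arrays gave 6.12, 6.74 and 6.26 against 7.04, 6.72 and 7.18 in RESThet. The groups lay apart at ES and NP, while at TN replicate b of RESTko (6.74) stood just above replicate b of RESThet (6.72). The difference was −0.48 at ES (SE 0.13, 1.39-fold), −0.87 at NP (SE 0.13, 1.83-fold) and −0.61 at TN (SE 0.13, 1.52-fold), with 3 arrays a group. Because these are bulk cultures, fewer cells that express a gene and less RNA per cell cannot be told apart.

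**Figure D1:**
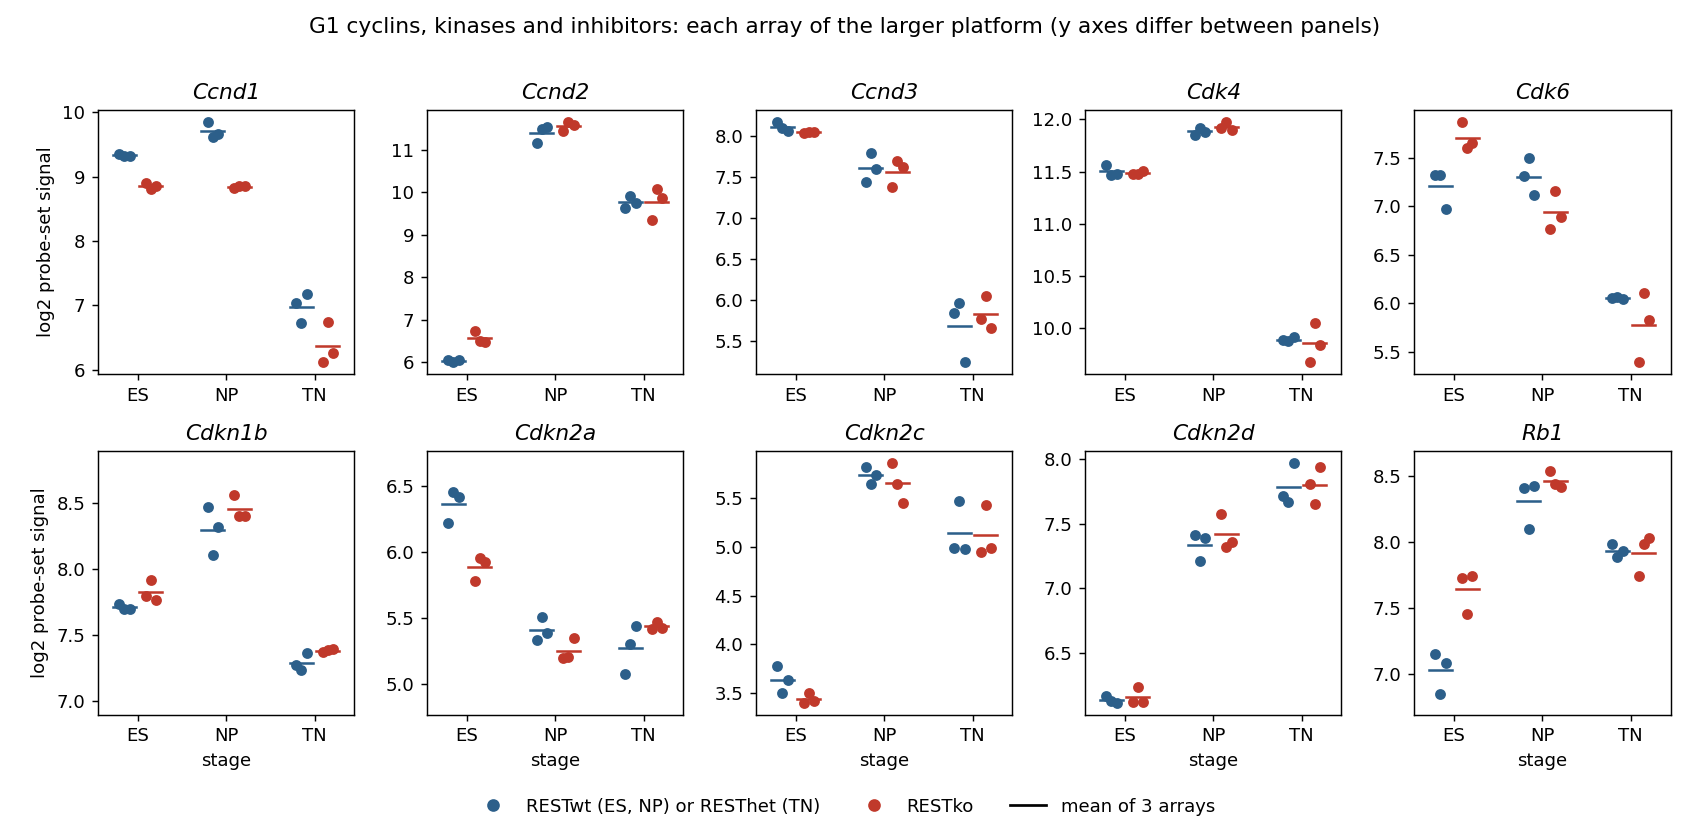
Each panel plots 1 gene on the larger platform, with the log2 probe-set signal on the y axis (scales differ between panels), the stage on the x axis, 1 point per array (blue RESTwt, or RESThet at TN; red RESTko) and a line at the mean of 3 arrays. *Ccnd1* in RESTko lies below its controls at ES and NP, from 8.81 to 8.90 and from 8.82 to 8.85, and overlaps them at TN.

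*Ccnd2*, the D cyclin of many progenitor cells, and *Ccnd3*, the third family member, did not follow *Ccnd1*. *Ccnd2* gave 6.73, 6.50 and 6.47 in RESTko ES against 6.04, 6.00 and 6.05 in RESTwt, a difference of 0.54 (SE 0.15, 1.45-fold) in the opposite direction to *Ccnd1*. At NP its arrays overlapped, at 11.45, 11.65 and 11.59 in RESTko and 11.16, 11.48 and 11.53 in RESTwt. At TN the *Ccnd2* means were 9.76 ± 0.38 in RESTko and 9.76 ± 0.15 in RESThet (SD, n = 3). *Ccnd3* differed by −0.07 at ES, −0.04 at NP and 0.14 at TN, each no larger than its SE of 0.15, although its ES groups did not overlap. At ES, then, the *Ccnd1* probe set was lower and the *Ccnd2* probe set higher in RESTko.

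The 2 kinases also parted at ES. *Cdk4* differed by −0.02, 0.04 and −0.04 at ES, NP and TN (SE 0.08), which is within the spread of its arrays. *Cdk6* gave 7.87, 7.60 and 7.65 in RESTko ES against 7.32, 7.32 and 6.97 in RESTwt, a difference of 0.50 (SE 0.15, 1.42-fold). At NP the sign of the *Cdk6* difference was the opposite, −0.37 (SE 0.15), with 6.77, 7.16 and 6.89 in RESTko against 7.31, 7.49 and 7.11 in RESTwt, and the arrays overlapped. At TN it was −0.28, with 5.40, 6.11 and 5.82 in RESTko against 6.05, 6.07 and 6.04 in RESThet, so that RESTko spanned the control arrays.

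Among the inhibitors, *Cdkn2a* had the largest difference at ES. It gave 5.78, 5.96 and 5.92 in RESTko against 6.22, 6.46 and 6.42 in RESTwt, a difference of −0.48 (SE 0.09, 1.39-fold). At NP the difference was −0.16 and at TN 0.16, and in both stages the arrays of the groups overlapped. *Cdkn2c* differed by −0.20 at ES, −0.08 at NP and −0.02 at TN, and *Cdkn2d* by 0.02, 0.08 and 0.02, with overlapping arrays throughout. *Cdkn1b* differed by 0.12 at ES, 0.16 at NP and 0.09 at TN (SE 0.08); the groups did not overlap at ES and TN, but the distance between them was small. A second, dimmer *Cdkn1b* probe set differed by 0.35 at ES, 0.00 at NP and 0.29 at TN, so the size of the *Cdkn1b* difference depended on the probe set.

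*Rb1*, the substrate of the D-cyclin kinases, was higher in RESTko at ES. Its arrays gave 7.73, 7.46 and 7.74 in RESTko against 7.16, 6.85 and 7.09 in RESTwt, a difference of 0.61 (SE 0.11, 1.53-fold). At NP the difference was 0.15, with 8.54, 8.44 and 8.42 against 8.41, 8.10 and 8.42, and at TN it was −0.02. The NP groups of *Rb1* overlapped through RESTwt array c.

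The counts past a threshold are given as a description too. In limma's moderated fit, 5 of 10 genes lay past an adjusted p of 0.05 at ES (*Ccnd2*, *Cdk6* and *Rb1* higher, *Ccnd1* and *Cdkn2a* lower), beside 9.24% of all 19938 genes, 5.19% higher and 4.05% lower. At NP and at TN 1 of 10, *Ccnd1*, lay past it, beside 8.03% and 1.16% of all genes, of which 3.71% and 0.802% were lower. Groups that did not overlap were found for 7 of 10 genes at ES, 1 at NP and 1 at TN, beside 29.4%, 21.9% and 16% of all genes. The rule used these contrasts, so nothing is read from the shares. The median difference over the 10 genes was 0.00 at ES and −0.01 at TN, beside −0.03 and −0.02 over all genes. With 1 array left out, the difference of *Ccnd1* lay between −0.50 and −0.45 at ES, −0.92 and −0.80 at NP, and −0.79 and −0.48 at TN. Its place past the threshold ended at ES without any 1 of the 6 arrays and at TN without RESTko replicate a or c or RESThet replicate a or c.

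**Figure D2:**
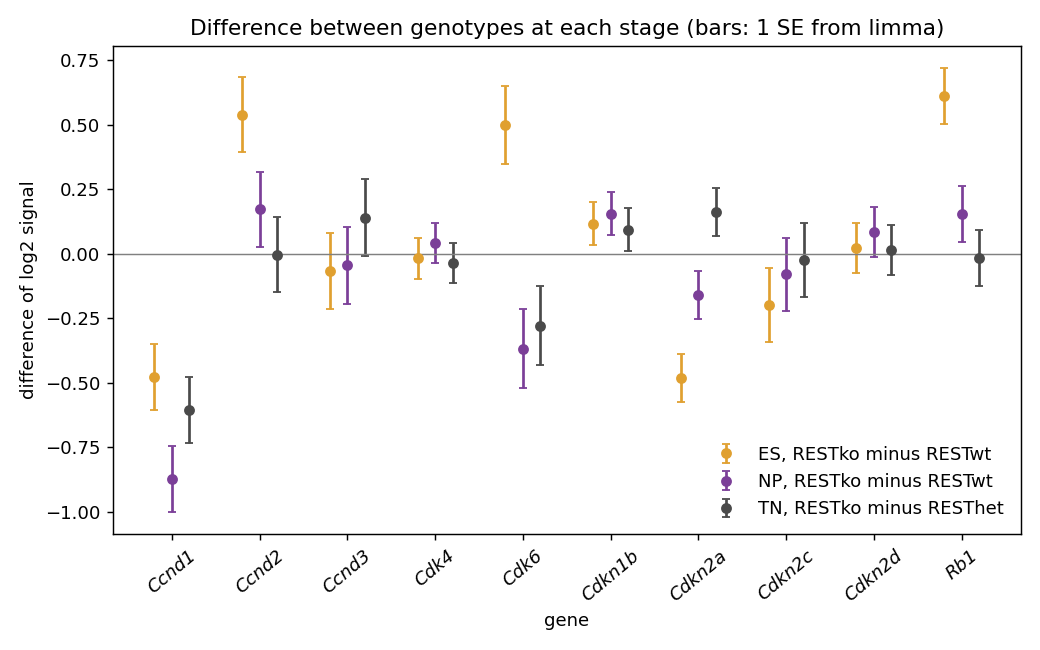
For each gene on the x axis, the y axis gives the difference of mean log2 signal, RESTko minus control, at ES (orange), NP (purple) and TN (grey), with 3 arrays a group and bars of 1 SE from limma. *Ccnd1* lies at −0.48, −0.87 and −0.61, while *Ccnd2*, *Cdk6* and *Rb1* lie near 0.5 to 0.6 at ES and closer to or below 0 at the later stages.

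Some marker levels differed between the same groups. Of all genes, 5.19% were called higher and 4.05% lower at ES. At NP 8.03% of all genes were called in either direction (3.71% lower), and at TN 1.16% (0.802% lower). At ES, the mean log2 level of 10 neuron markers ranged from 5.88 to 6.06 in RESTko and from 5.52 to 5.63 in RESTwt (4 of 10 called higher), that of 10 endoderm markers from 6.00 to 6.12 against 5.47 to 5.66 (4 higher), that of 10 progenitor markers from 6.72 to 6.82 against 6.56 to 6.65 (2 higher), and that of 10 pluripotency markers from 10.13 to 10.19 against 10.33 to 10.39 (3 lower). At NP the neuron markers ranged from 8.65 to 9.05 against 7.85 to 8.52 (6 of 10 higher), 3 of 10 fibroblast markers were lower, and of the endoderm markers 1 was higher and 2 were lower. At TN the progenitor markers ranged from 7.06 to 7.52 in RESTko against 7.44 to 7.91 in RESThet (1 of 10 lower), and the endoderm markers from 5.73 to 6.14 against 5.41 to 5.69 (2 of 10 higher). The fibroblast markers at TN ranged from 8.50 to 8.68 against 8.20 to 8.54 (1 of 10 higher, *Ogn*), and the astrocyte markers from 6.64 to 7.18 against 7.04 to 7.40 (1 of 8 lower, *Gja1*). Array signals have no level of 0, and the part of these markers in the differences of the 10 genes was not tested.

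The steps between stages were tested. The choice of genes rested on genotype contrasts, but it was made with earlier results of these data known. The steps on the larger platform also use the same arrays, so their p-values are not free of that choice. From ES to NP the D cyclins moved apart. *Ccnd2* rose from 6.04, 6.00 and 6.05 in RESTwt ES to 11.16, 11.48 and 11.53 in RESTwt NP, a step of 5.36 (SE 0.15, 41.1-fold, limma adjusted p = 2.14e-15), and by 4.99 in RESTko (31.9-fold, adjusted p = 4.89e-15). *Ccnd1* rose by 0.38 in RESTwt (1.30-fold, adjusted p = 0.0146), and in RESTko its step was −0.017 (adjusted p = 0.915), with 8.81 to 8.90 at ES and 8.82 to 8.85 at NP. The RESTwt call of *Ccnd1* ended without NP replicate a (adjusted p = 0.0667). For *Ccnd1*, as for every member, the difference between the RESTwt and RESTko steps uses the genotype contrasts that chose the genes. It was not tested. *Ccnd3* fell, with steps of −0.50 in RESTwt (adjusted p = 0.0066) and −0.48 in RESTko (adjusted p = 0.00884), the latter lost without RESTko NP replicate a (adjusted p = 0.0506).

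In the mixed-strain course the same 3 cyclins went through the same stages on separate arrays. *Ccnd2* gave 5.79 and 6.82 at ES, 11.97 and 12.21 at NP and 8.46 and 8.43 at TN, and its step to NP was 5.78 (55.1-fold, limma adjusted p = 9.62e-07). *Ccnd1* gave 8.22 and 7.94, then 9.46 and 9.44, then 5.47 and 5.93, a rise of 1.37 to NP (2.58-fold, adjusted p = 0.00034). *Ccnd3* gave 9.66 and 9.75 at ES and 9.55 and 9.59 at NP, a step of −0.13 that did not pass the test (adjusted p = 0.52). The 3 probe sets of *Ccnd1* on this platform gave rises between 0.58 and 1.37, and the 7 of *Ccnd2* gave rises between 4.48 and 6.28. The 2 dimmer *Ccnd3* probe sets gave −0.47 and 0.13.

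**Figure D3:**
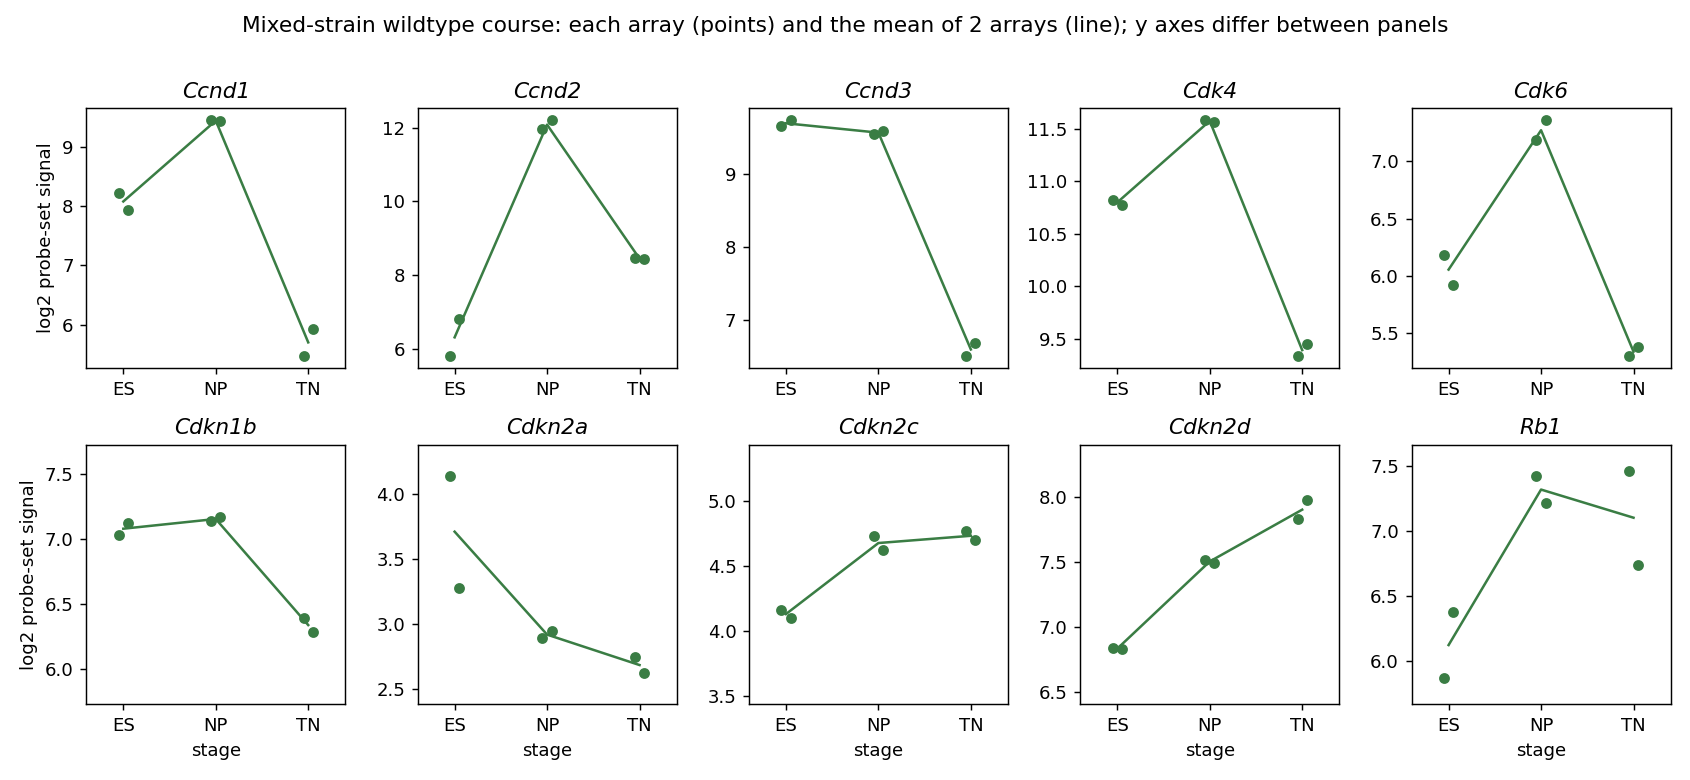
Each panel plots 1 gene in the mixed-strain wildtype course, with log2 probe-set signal on the y axis (scales differ between panels), stage on the x axis, 1 point per array and a line through the means of 2 arrays. *Ccnd1*, *Ccnd2*, *Cdk4* and *Cdk6* peak at NP, and *Cdkn2d* is higher at each later stage, from 6.83 at ES to 7.98 in the higher TN array.

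Of the kinases, *Cdk4* rose to NP in every line. It went from 11.56, 11.47 and 11.48 to 11.85, 11.92 and 11.88 in RESTwt, a step of 0.38 (limma adjusted p = 0.00032), with steps of 0.44 in RESTko (adjusted p = 7.05e-05) and 0.78 in the course (adjusted p = 0.00112). The step of *Cdk6* was 0.10 in RESTwt (adjusted p = 0.581), it was −0.77 in RESTko (1.70-fold, adjusted p = 0.000224), and 1.22 in the course (2.32-fold, adjusted p = 0.000194). The difference between the RESTwt and RESTko steps of *Cdk6* uses the genotype contrast that chose the genes and was not tested, and the course was measured on another platform and strain. The 3 course probe sets of *Cdk4* gave steps to NP between 0.78 and 0.91, and a second *Cdk6* probe set gave 1.07, while a dim one, at most 3.48 in any stage, gave −0.21.

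Of the inhibitors, *Cdkn2c* and *Cdkn2d* rose into the progenitor stage and *Cdkn2a* fell. *Cdkn2c* gave 3.78, 3.50 and 3.63 in RESTwt ES, close to the lower quartile of all probe sets (3.47 to 3.78 over the arrays), and 5.82, 5.65 and 5.74 at NP, a rise of 2.10 (4.28-fold, limma adjusted p = 3.9e-10). It rose by 2.21 in RESTko (adjusted p = 1.7e-10) and by 0.55 in the course (adjusted p = 0.00775). *Cdkn2d* rose by 1.20 in RESTwt (2.29-fold, adjusted p = 4.17e-09), 1.26 in RESTko (adjusted p = 1.94e-09) and 0.67 in the course (adjusted p = 0.00273). *Cdkn2a* fell, with steps of −0.96 in RESTwt (1.94-fold, adjusted p = 4.98e-08), −0.64 in RESTko (adjusted p = 8.08e-06) and −0.79 in the course (adjusted p = 0.0309). The course values of *Cdkn2a*, 4.15 and 3.28 at ES, 2.89 and 2.95 at NP and 2.75 and 2.62 at TN, sit from NP on near the lower quartile of that platform (2.84 to 2.89), and its call there ended in 3 of 4 fits that left out an ES or NP array. The course call of *Cdkn2c* also ended in 2 such fits (adjusted p = 0.0528 and 0.0532).

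*Cdkn1b* and *Rb1* rose as well. *Cdkn1b* gave 7.73, 7.69 and 7.69 in RESTwt ES and 8.46, 8.11 and 8.32 at NP, a rise of 0.59 (limma adjusted p = 6.03e-06), with 0.63 in RESTko (adjusted p = 2.69e-06) and 0.07 in the course (adjusted p = 0.717). *Rb1* rose by 1.28 in RESTwt (2.43-fold, adjusted p = 7.97e-09), 0.82 in RESTko (1.77-fold, adjusted p = 2.34e-06) and 1.20 in the course (2.29-fold, adjusted p = 0.00499, and 0.0543 without ES replicate a). In both lines and in the course, cyclin D2 and *Rb1* thus rose with *Cdkn2c* and *Cdkn2d*, each past the test.

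From ES to NP, 7 of the 10 genes rose and 2 fell in RESTwt, 6 rose and 3 fell in RESTko, and 7 rose and 1 fell in the course. Of all genes, 67.1% were called in RESTwt (31% higher and 36.1% lower), 66% in RESTko (32.2% and 33.9%) and 38.9% in the course (19.9% and 19%). The median step over the 10 genes was 0.48, 0.53 and 0.72, beside −0.07, −0.04 and −0.01 over all genes. In RESTwt 9 of 10 neural progenitor markers, 9 of 10 neuron markers and 9 of 10 endoderm markers rose. The mean endoderm marker level went from 5.47 to 5.66 at ES up to 7.04 to 7.47 at NP in RESTwt; its part in the steps was not tested.

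From NP to TN all 3 D cyclins and both kinases fell, in every line. *Ccnd1* fell by 2.73 from RESTwt NP to RESThet TN (6.65-fold, limma adjusted p = 1.24e-12), and its steps were −2.47 in RESTko (5.53-fold, adjusted p = 5.92e-12) and −3.75 in the course (13.5-fold, adjusted p = 3.58e-07). *Ccnd2* fell too, with steps of −1.63 (3.09-fold, adjusted p = 1.12e-08), −1.80 (3.49-fold, adjusted p = 2.91e-09) and −3.64 (12.5-fold, adjusted p = 6.52e-06) in the same order. In neurons *Ccnd2* stayed above its ES level on both platforms, whereas *Ccnd1* ended below its ES level. *Ccnd2* gave 9.62, 9.91 and 9.75 in RESThet TN against 6.04, 6.00 and 6.05 in RESTwt ES. In the course it gave 8.46 and 8.43 against 5.79 and 6.82. Its other course probe sets also had higher means at TN than at ES. For the dimmest of these the means were 3.22 against 2.84 and 2.87 against 2.65, near that platform's lower quartile (2.84 to 2.89). TN and ES were not tested against each other. *Ccnd3* gave 7.44, 7.79 and 7.60 in RESTwt NP and 5.85, 5.97 and 5.25 in RESThet TN, a step of −1.92 (3.79-fold, adjusted p = 1.46e-09), with −1.74 in RESTko (adjusted p = 6.65e-09) and −2.97 in the course (7.86-fold, adjusted p = 2.4e-07).

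*Cdk4* went from 11.85, 11.92 and 11.88 in RESTwt NP to 9.88, 9.87 and 9.91 in RESThet TN. Its steps were −1.99 (3.99-fold, limma adjusted p = 1.02e-13), −2.07 in RESTko (4.21-fold, adjusted p = 7.03e-14) and −2.18 in the course (4.54-fold, adjusted p = 1.01e-06), the narrowest range of falls among the cyclins and kinases. The steps of *Cdk6* were −1.25 (2.38-fold, adjusted p = 7.16e-07), −1.16 (2.24-fold, adjusted p = 1.95e-06) and −1.93 (3.81-fold, adjusted p = 5.26e-06). The other *Cdk4* probe sets of the course gave −2.43 and −2.52, and the second *Cdk6* probe set −1.88. The kinase arrays at NP and TN did not overlap in any line.

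The inhibitors divided at this step. *Cdkn2d* was the member that rose, from 7.41, 7.21 and 7.39 in RESTwt NP to 7.71, 7.67 and 7.97 in RESThet TN, by 0.45 (limma adjusted p = 0.000423), by 0.38 in RESTko (adjusted p = 0.00179) and by 0.40 in the course (adjusted p = 0.0265, ended in 3 fits that left out 1 array). *Cdkn1b* fell, with steps of −1.01 (2.01-fold, adjusted p = 3.71e-09), −1.07 (2.10-fold, adjusted p = 1.77e-09) and −0.82 (1.76-fold, adjusted p = 0.000518). *Cdkn2c* fell, with steps of −0.59 in the controls (adjusted p = 0.00121) and −0.53 in RESTko (adjusted p = 0.00276), and its course step was 0.06 (adjusted p = 0.765). *Cdkn2a* did not pass the test, with steps of −0.13 (adjusted p = 0.204), 0.19 (adjusted p = 0.0795) and −0.23 (adjusted p = 0.487). *Rb1* fell, with steps of −0.37 (adjusted p = 0.00481) and −0.55 in RESTko (adjusted p = 0.00021), and in the course, at 7.43 and 7.21 in NP and 7.47 and 6.74 in TN, its step of −0.22 did not pass (adjusted p = 0.536).

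Of the 10 genes, 1 rose and 8 fell from NP to TN in the controls and in RESTko, and 1 rose and 6 fell in the course. Over all genes 73.1% were called in the controls (43.2% higher and 29.9% lower), 71% in RESTko (41.8% and 29.2%) and 50.8% in the course (21.7% and 29.1%). The median step of the 10 genes was −1.13, −1.12 and −1.37, beside 0.14, 0.13 and −0.09 over all genes. Quantile normalization, which removes the shift of all genes, left the 3 cyclins and 2 kinases lower in all lines. The fibroblast markers rose at the same step, and their mean level in the controls went from 5.56 to 6.10 at NP up to 8.20 to 8.54 at TN. Astrocyte markers rose as well (6 of 8 in the controls), and their mean level there went from 5.68 to 5.84 up to 7.04 to 7.40. The part of either marker set in these falls was not tested.

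**Figure D4:**
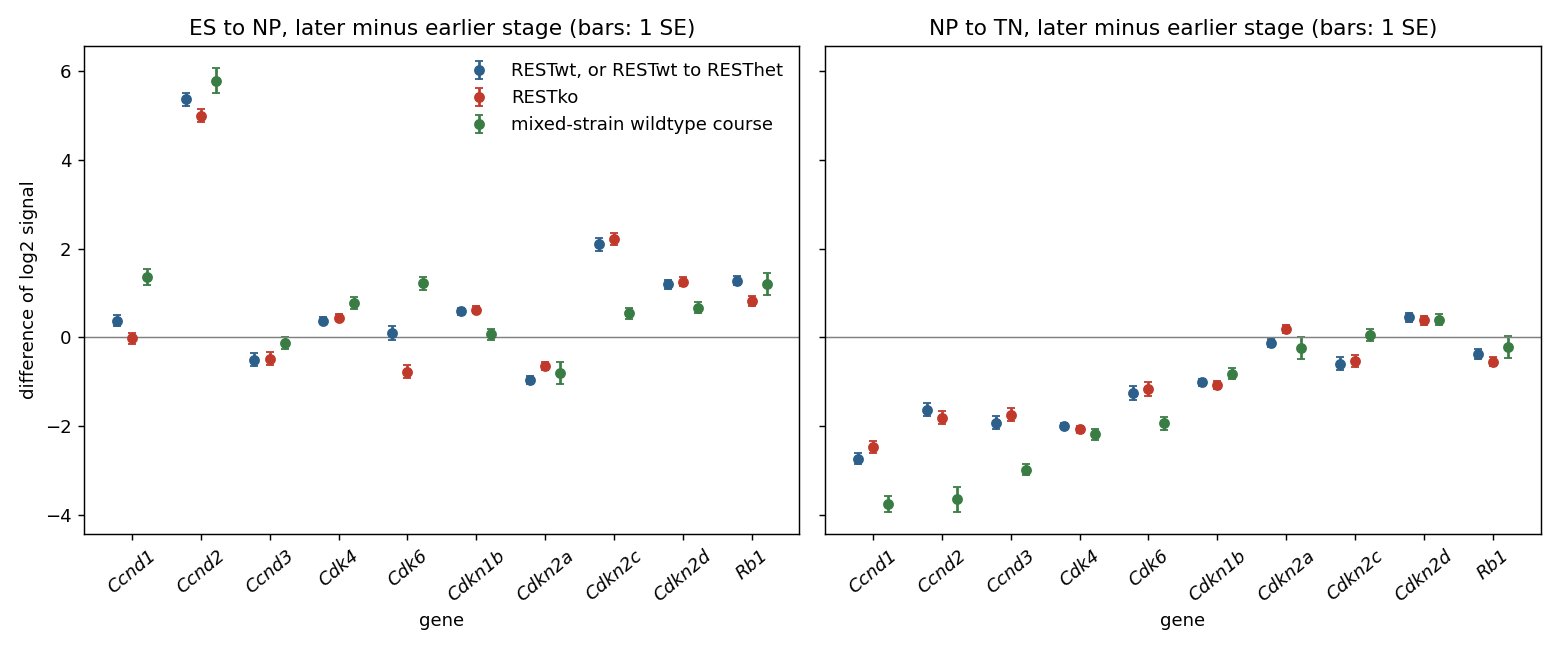
For each gene on the x axis, the y axis gives the step in mean log2 signal, later minus earlier stage, in the controls (blue), RESTko (red) and the mixed-strain course (green), with bars of 1 SE from limma. *Ccnd2* rises by 4.99 to 5.78 from ES to NP (left), and the cyclins and kinases lie between −3.75 and −1.16 from NP to TN (right), where *Cdkn2d* lies between 0.38 and 0.45.

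The other genes of the G1 and RB pathway were counted from a list of 41, of which 39 were measured on the larger platform and 40 in the course. At ES 6 of 39 were higher and 3 lower in RESTko, where 9.24% of all genes were called. Among these, the call of *Mycn* (higher) ended in 6 of 6 fits that left out 1 array. That of *E2f4* (lower) ended in 5 of 6. *Myc*, an inducer of G1 cyclin and kinase genes, was higher by 1.11 (2.15-fold, limma adjusted p = 8.99e-05), *Cdkn1c*, the inhibitor p57, by 0.61 (adjusted p = 0.00384) and *Cdk14*, a kinase that pairs with cyclin Y, by 0.51 (adjusted p = 0.00531). *Rbl2*, the RB relative p130, was lower (difference −0.51, adjusted p = 0.00716), and 2 of the 3 lower genes lie on chromosome 8. At NP, where 8.03% of all genes were called, *Cdkn1c* was higher by 1.26 (2.39-fold, adjusted p = 4.94e-06) and 4 of 39 were lower, 3 of them on chromosome 8, led by *Myc* at −0.50 (adjusted p = 0.048, arrays overlapping) and *E2f4*, a repressor E2F, with −0.47 (adjusted p = 0.00277). The calls of *Myc* and of *Fbxo31* (−0.32, adjusted p = 0.0425), a ubiquitin ligase subunit reported to act on cyclin D1, ended when single arrays were left out, those of *Myc* without RESTko replicate a or b or RESTwt replicate b or c and that of *Fbxo31* without any 1 of the 6. Both also ended with the replicate block (*Myc* adjusted p = 0.0614, *Fbxo31* adjusted p = 0.0515) and in a fit of the NP arrays alone (adjusted p = 0.212 and 0.0759), and as a mean over probe sets *Fbxo31* differed by −0.17 (adjusted p = 0.251). The NP call of *Tfdp1*, 1 of the 3 lower genes on chromosome 8, ended in 5 of 6 fits that left out 1 array. At TN, where 1.16% of all genes were called, limma called none of the 39. Of the 39, 2 had an unadjusted p under 0.05, as had 2342 of all 19938 genes.

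Replication and mitosis genes, which E2F factors control, were called between genotypes at a share near or below that of all genes (9.24% at ES, 8.03% at NP and 1.16% at TN). Of 23 measured, 1 was lower at ES (*Gins2*, −0.32, limma adjusted p = 0.0221, lost without RESTko replicate a or b or RESTwt replicate a or b) and 2 at NP (*Gins2*, −0.46, adjusted p = 0.00259, and *Tyms*, −0.38, adjusted p = 0.0463, arrays overlapping). Limma called none at TN, where 5 had an unadjusted p under 0.05, as had 2342 of all 19938 genes. *Gins2*, a subunit of the replicative helicase, lies on chromosome 8. In a fit of the NP arrays alone neither NP call held (*Gins2* adjusted p = 0.0665, *Tyms* adjusted p = 0.216). The *Tyms* call also ended without any RESTko array or without RESTwt replicate b or c. Their median difference was −0.00 at ES, −0.12 at NP and −0.22 at TN, beside −0.03, 0.01 and −0.02 over all genes.

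The stage steps of both lists were tested too. From ES to NP, *Cdkn1c* rose by 3.21 in RESTwt (9.26-fold, limma adjusted p = 2.4e-13), 3.85 in RESTko (14.5-fold, adjusted p = 1.88e-14) and 3.32 in the course (9.96-fold, adjusted p = 1.19e-06). *Cdk14* rose by 2.27, 1.94 and 2.58, and *Ccne1*, the cyclin that acts after the D cyclins, had steps of −1.21, −1.50 and −1.64, each past the test. Of the pathway list, 15 rose and 13 fell in RESTwt, 13 and 15 in RESTko, and 9 and 6 of 40 in the course. Of all genes, 31% rose and 36.1% fell in RESTwt, 32.2% and 33.9% in RESTko, and 19.9% and 19% in the course. The replication and mitosis genes fell in part, 13 of 23 in RESTwt, 17 in RESTko and 7 in the course. Of these 23 genes, 1 rose in RESTwt, 0 in RESTko and 1 in the course. The course count of 8 called in either direction went to between 1 and 3 when an array was left out and to 13 in a fit of the ES and NP arrays alone.

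From NP to TN, 30 of 39 pathway genes fell and 6 rose in the controls and in RESTko. In the course 31 of 40 fell and 6 rose, and the medians were −1.20, −1.23 and −1.54 in the same order. Of all genes, 29.9% fell and 43.2% rose in the controls, 29.2% and 41.8% in RESTko, and 29.1% and 21.7% in the course. All 23 replication and mitosis genes fell in the controls and in RESTko and 22 fell in the course, with medians of −2.60, −2.62 and −3.67. *Cdk1*, the mitotic kinase, fell, with steps of −2.88 in the controls (7.38-fold, limma adjusted p = 1.93e-11), −2.78 in RESTko (6.89-fold, adjusted p = 3.68e-11) and −3.91 in the course (15-fold, adjusted p = 6.27e-08). *Rrm2*, a subunit of ribonucleotide reductase, had steps of −3.44 in the controls and −3.63 in RESTko, both past the test. In RESTko *Cdkn1c* fell by 2.71 (6.55-fold, adjusted p = 1.24e-12), from an NP level 1.26 higher than in RESTwt. Its steps in the controls and in the course were not among the 4 largest and are not given here. The fall is therefore not shown to be particular to RESTko. *Cdkn1b* and *Cdkn1c*, both CIP/KIP inhibitors, were thus lower in RESTko neurons than in RESTko progenitors. The step of *Cdkn1a*, a further CIP/KIP gene on the pathway list, is not given here.

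Across the 18 arrays of the larger platform, most of the 10 genes followed 1 of 2 patterns, given as descriptions because the arrays share their stages. Pearson's r with *Ccnd1* was 0.95 for *Cdk4*, 0.91 for *Ccnd3* and 0.89 for *Cdk6*, −0.13 for *Ccnd2* and −0.62 for *Cdkn2d*. With *Ccnd2* it was 0.97 for *Cdkn2c*, 0.92 for *Rb1*, 0.82 for *Cdkn2d* and −0.88 for *Cdkn2a*. The first group is high at ES and NP and low in neurons, and the second is low at ES. *Cdkn2a* was instead highest at ES. *Cdkn1b*, with r of 0.76 with *Ccnd1* and 0.41 with *Ccnd2*, was highest at NP and lowest at TN.

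The candidates for likeness to *Ccnd1* were 13411 of the 13956 genes above the dimmest 30%. Among them, the 5 with the highest Pearson's r with *Ccnd1* over the 18 arrays were *Gins2*, *Cmc2*, *Zc3h18*, *Brd7* and *Cdkn2aip*, each at 0.98. All 5 lie on chromosome 8, which holds 5.35% of the candidates and, as given above, was lower as a block in RESTko at ES and NP. With chromosome 8 left out, a choice made after seeing this, the 5 most alike of 12694 genes were *Snrpg* (0.98) and *Rps15*, *Fzd6*, *Ppp1r14a* and *Ints12* (0.97 each). *Snrpg*, a spliceosomal protein gene, differed between RESTko and control by −0.22 at ES, −0.16 at NP and −0.10 at TN. Spearman's rank correlation kept 1 of the first 5 genes.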

How the data were processed

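Mouse cells were hybridized to Affymetrix arrays. The values are log2 probe-set signals deposited by the authors in 1 value table per platform; oligo 1.14.0 is named in the submitters' processing notes, and for background correction, summarization and normalization the method is not given in the sources used here. Platforms were never combined. Precision is limited by how many arrays there are, as arrays have no depth: the median SE of a difference was 0.10 on the larger platform and 0.15 in the course.

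Probe sets were named from the GEO platform annotation and RefSeq: of 35556 on the larger platform 21789 had 1 symbol, 1621 several and 12146 none, and of 45101 in the course 34958, 932 and 9211. For each gene the probe set with the highest mean was kept. Groups were compared by a moderated linear model, limma 3.58.1 under R 4.3.3, with default settings, a mean per group and all arrays of a platform in one fit, with Benjamini-Hochberg adjustment over all genes and calls at an adjusted p under 0.05. On simulated data with 19938 genes, of which 200 were changed by 1 log2 unit in the ES comparison, it recovered 98% and made 11 false calls. The largest ES difference of a member was smaller, 0.61 (*Rb1*), and recovery at such sizes is not given here.

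The members and the gene lists were chosen with earlier results of these data known, so p-values of stage steps and of list genes are not free of that choice. All 10 members are named, and from the lists up to 4 called pathway genes and 2 called replication and mitosis genes with the largest differences per comparison. Some further pathway genes are named because their calls ended with an array left out. Likeness to *Ccnd1* names 5 genes. Same-letter correlations of deviations ranged from −0.14 to 0.40. They were highest at NP, at 0.40 for letter a and 0.31 for letter b, with 0.01 for letter c. Whether the letters mark shared runs is not given in the sources used here, and the main fit did not pair arrays by letter. Arrays of a group correlated at 0.993 to 0.998 on the larger platform. Alternatives were quantile normalization, a filter on the dimmest 30% of genes, the mean over probe sets, a fit on the compared groups alone, the replicate block, and each array left out. Genotype differences of members carry no p-value here, and their counts past the threshold are a description, because the choice used them. A protein comparison was not made here.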

Additional observations from a re-analysis of the deposited data

How the results depend on the processing

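After quantile normalization *Ccnd1* differed between genotypes by −0.45 at ES, −0.90 at NP and −0.59 at TN. *Cdkn1b* as a mean over its probe sets differed between genotypes by 0.23 at ES and 0.19 at TN. At ES the count of members past the threshold went from 5 to 3 after quantile normalization (*Ccnd1*, *Cdkn2a* and *Rb1*) and to between 2 and 3 when 1 array was left out; at TN it went from 1 to 0 in a fit of the TN arrays alone and to between 0 and 1 with 1 array left out. With the replicate letter as a replicate block, which cannot change a difference of balanced groups, 5 members lay past the threshold at ES. At NP, where same-letter correlations were highest, 1 member (*Ccnd1*) lay past it under the block.

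The ES to NP step of *Ccnd1* in RESTwt ranged from 0.31 to 0.42 with 1 array left out, its call ending once. In RESTko this step, never called, changed sign to 0.10 after quantile normalization (adjusted p = 0.53) and to 0.0051 without RESTko ES replicate a, ranging from −0.041 to 0.0051. Other uncalled steps that changed sign were *Cdk6* from ES to NP in RESTwt (−0.048 after quantile normalization, −0.017 without RESTwt ES replicate c, range −0.017 to 0.20), *Cdkn2a* from NP to TN in RESTko (−0.051, quantile normalization), *Cdkn2c* in the course from NP to TN (−0.052, quantile normalization) and *Rb1* there (0.15 without TN replicate b, range −0.58 to 0.15). *Cdkn2a* from NP to TN became called in RESTko under the block (adjusted p = 0.0384) and in the controls after quantile normalization (−0.34, adjusted p = 0.00406). The cause of these changes was not tested.

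Counts over all genes moved most at NP (1602 to 549 in NP arrays alone, 872 without RESTko replicate a, 906 without RESTwt replicate b) and TN (231 to 50 in TN arrays alone, and 145, 117 and 138 without RESTko replicate a, RESTko replicate c or RESThet replicate c), and at ES from 1842 to 1199 without RESTko replicate a and 1190 without RESTwt replicate c. Of the pathway genes at NP, 5 were called, 2 in the NP arrays alone, 8 after the dim filter and between 2 and 5 with 1 array left out. The dim filter kept 13956 genes with all 10 members on the larger platform and 12736 with 9 in the course, where *Cdkn2a* was left out.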
